A study of Caenorhabditis elegans with 26 samples.

Results

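The let-7 sisters miR-48, miR-84 and miR-241 were followed through larval development as the 5p and the 3p arm of each hairpin. These 6 mature sequences were chosen by name from a table of 439, and all 6 passed the filter on low counts, as did 217 miRNAs in all. Small RNAs came from whole *Caenorhabditis elegans* larvae grown at 25 °C and harvested every hour between 18 h and 30 h after the plating of synchronized L1 larvae on food. The mutant strain was HW2643, *mir-235(xe181[seed_mutant])*, called *mir-235(seed_mut)*, in which nucleotides in the seed of miR-235-3p had been changed by genome editing. Matching changes had been made in the 5p arm to keep the hairpin. The other strain was N2, the wild type from which the allele was made. Each strain gave 13 libraries, 1 per hour, from 1 course of cultures, so no hour was replicated, and the allele cannot be told apart from the culture in any comparison of the strains. P-values of the fitted models therefore measure the scatter of hourly libraries about a fitted curve. Those of the permutation tests instead compare a slope with slopes from reshuffled hours. Neither kind allows for likeness between neighbouring hours of a course.

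In *C. elegans* the let-7 sisters belong to the heterochronic pathway, which sets the order of stage-specific cell fates. Together they repress *hbl-1*, a transcription factor gene that keeps epidermal seam cells in their L2 programme, and so promote the passage from L2 to L3 fates. Their family member let-7 acts later, at the passage from larval to adult fates. The seed of the family lies in the 5p arm. By the *C. elegans* annotation of build WBcel235, *mir-48* lies at V:14364412-14364509 and *mir-241* at V:14366188-14366283, both on the minus strand and 1678 bp apart, with no other gene annotated over either. *mir-84* lies at X:16022404-16022478, minus strand, 648 bp from the nearest protein-coding gene, *nhx-1*, an ion exchanger gene on the opposite strand. The counts themselves were made on build ce10, and no coordinate was carried between the builds.

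The libraries held between 1342771 and 4279734 counts (median 3005586). A level here is a CPM value, counts scaled to a library total of 1000000, and its interval covers counting error only. Reads of the edited miR-235 summed to at least 15145 CPM in every *mir-235(seed_mut)* library and at most 226 CPM in N2, and reads of the unedited form to at most 49.3 CPM in *mir-235(seed_mut)* and at least 5151 CPM in N2. The N2 library at 23 h stood apart. It had the lowest total, and its median absolute deviation from a curve fitted over the hours, across 177 miRNAs, was 0.497 on the log2 scale, against 0.0771 to 0.273 in the other libraries. The *mir-235(seed_mut)* library at 24 h stood apart for miR-48-3p. Results that rest on these libraries are given with and without them. The 14 listed markers of muscle, neurons, intestine and embryo or germ line summed to 27924 to 41894 CPM in *mir-235(seed_mut)* and 22691 to 37818 CPM in N2. Most of this was the muscle marker miR-1-3p, with 26284 to 40020 CPM in *mir-235(seed_mut)* and 20770.5 to 35845 CPM in N2. The embryo and germ line list reached at most 2116 CPM, the neuronal list 132 CPM and the intestinal marker 123 CPM. Of the 14 only miR-41-3p, an embryonic miRNA, had a count of 0 in some library.

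The 5p arm dominated the hairpins of miR-48 and miR-84, and the 3p arm that of miR-241. miR-48-5p made up 98.4% to 99.6% of the counts of its hairpin in *mir-235(seed_mut)*, with a median of 99.4%, and 98.4% to 99.6% in N2. For miR-84-5p the share was 94.2% to 98.1% in *mir-235(seed_mut)* and 94.1% to 98.7% in N2. miR-241-5p, the arm that holds the let-7 seed, made up 6.61% to 19.2% of its hairpin in *mir-235(seed_mut)*, with a median of 14.6%, and 8.08% to 17.4% in N2, with a median of 12.8%. In reads miR-241-3p was thus the larger arm at every hour in both strains. Shares and levels of different miRNAs are in reads, since the efficiency of cloning each sequence is unknown.

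All 3 seed-bearing 5p arms accumulated over the 13 hours. Over 12 h the fitted change was 2.46-fold for miR-48-5p, 2.36-fold for miR-241-5p and 1.77-fold for miR-84-5p. In CPM the 30 h level of miR-48-5p was 2.39 times that at 18 h in *mir-235(seed_mut)* and 1.80 times in N2. The same ratio was 2.46 in *mir-235(seed_mut)* and 2.02 in N2 for miR-241-5p. For miR-84-5p it was 1.30 in *mir-235(seed_mut)* and 2.09 in N2. Among the 3p arms the fitted change was 0.497-fold for miR-84-3p, and no slope was detected for miR-48-3p or miR-241-3p. In CPM the level of miR-84-3p at 30 h was 0.614 of that at 18 h in *mir-235(seed_mut)* and 0.733 in N2. The 2 arms of the miR-84 hairpin therefore moved in opposite directions. Counts were tested with edgeR's quasi-likelihood test with Benjamini-Hochberg adjustment over 217 miRNAs and a threshold of 0.01, in a model with a linear term for the hour beside a rhythm of 7 h in each strain. By this test 45 of 217 miRNAs rose (20.7%) and 43 fell (19.8%), so slopes were common, and 3 of the 6 members rose and 1 fell. With scaling by total counts alone the split over all miRNAs was 33 higher and 68 lower. The calls of the 6 members did not change. The median slope of the 6 members was 0.04 log2 units per h, beside -0.00050 over all miRNAs tested.

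miR-48-5p was the most abundant of the sisters. Its level was 14624.5 CPM at the lowest, 28049 CPM at the median and 35290 CPM at the highest in *mir-235(seed_mut)*, at 18 h and 25 h for the extremes. In N2 it was 17657 CPM at the lowest, at 19 h, 26924 CPM at the median and 34016 CPM at the highest, at 30 h. The first 3 hours and the last 3 hours did not overlap in either strain, with at most 21130 CPM early and at least 32200 CPM late in *mir-235(seed_mut)*, and at most 18942 CPM early and at least 31438 CPM late in N2. The slope was 0.11 ± 0.01 log2 units per h (SE, edgeR, adjusted p = 4.56e-10). The N2 library at 23 h was low for this miRNA, with 17678 CPM, or 25349 CPM once the library was scaled by its TMM factor, edgeR's correction for differences in composition. Without it the slope was 0.10.

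miR-241-5p was present at far fewer reads and rose about as steeply. It had 110 CPM at the lowest, at 18 h, 233 CPM at the median and 316 CPM at the highest, at 27 h, in *mir-235(seed_mut)*. In N2 the lowest level was 145 CPM at 18 h, the median 247 CPM and the highest 293 CPM at 30 h. These levels rest on 379 to 1019 counts per library in *mir-235(seed_mut)* and 295 to 970 in N2. The exact Poisson 95% interval of the lowest value, in *mir-235(seed_mut)* at 18 h, was 99.5 to 122 CPM. The slope was 0.10 ± 0.02 log2 units per h (SE, edgeR, adjusted p = 1.36e-05). In *mir-235(seed_mut)* the library at 28 h had 191 CPM, between 316 CPM at 27 h and 270 CPM at 29 h, while miR-84-5p had its highest level there.

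miR-84-5p rose less and with more scatter. In *mir-235(seed_mut)* its level was 6703 CPM at the lowest, at 18 h, 8694 CPM at the median and 12520 CPM at the highest, at 28 h. In N2 the lowest level was 5027 CPM at 23 h, the median 8156 CPM and the highest 10806 CPM at 26 h. Here the early and late hours overlapped in *mir-235(seed_mut)*, where the highest of the first 3 hours, 8024 CPM, exceeded the lowest of the last 3, 7759 CPM. They did not overlap in N2, with 7695 CPM as the highest early and 8353 CPM as the lowest late value. The slope over both strains was 0.07 ± 0.01 log2 units per h (SE, edgeR, adjusted p = 3.38e-05).

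**Figure D1:**
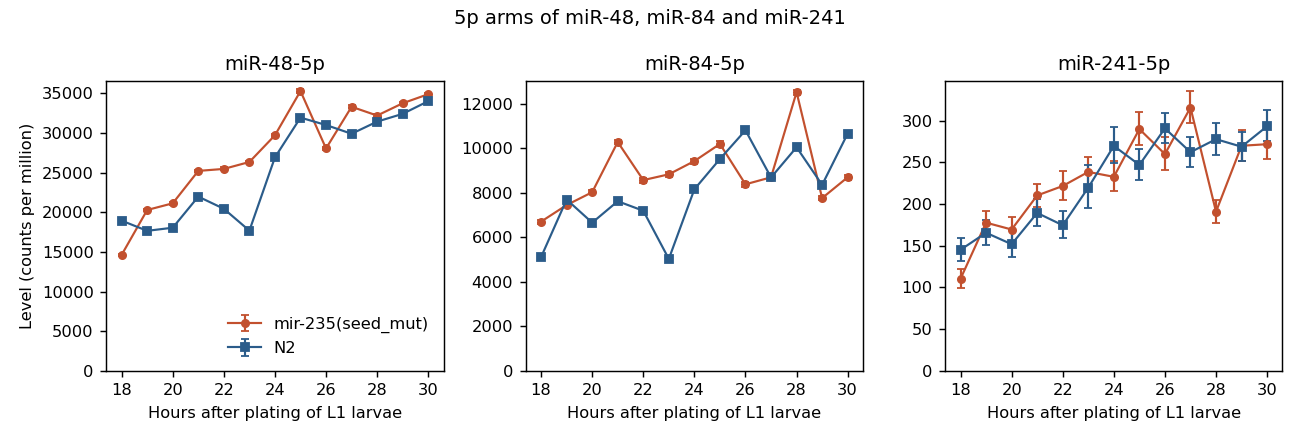
Level in CPM (y axes, each from 0) of the 5p arms against hours after plating, as circles for mir-235(seed_mut) and squares for N2, 1 library per point, with exact Poisson 95% intervals as bars. miR-48-5p reaches 34896 CPM in mir-235(seed_mut) and 34016 CPM in N2 at 30 h, and the N2 points at 23 h drop for miR-48-5p and miR-84-5p but not for miR-241-5p.

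miR-84-3p, the minor strand of its hairpin, fell over the course and had its lowest levels at 26 h to 28 h in N2 and 25 h to 27 h in *mir-235(seed_mut)*. In *mir-235(seed_mut)* it had 173 CPM at the lowest, at 27 h, 262 CPM at the median and 413 CPM at the highest, at 18 h. In N2 it had 137 CPM at the lowest, at 28 h, 244 CPM at the median and 395 CPM at the highest, at 22 h. Its fitted slope was -0.08 ± 0.01 log2 units per h (SE, edgeR, adjusted p = 1.94e-06). The decline was not steady. At 30 h the level was 253 CPM in *mir-235(seed_mut)* and 234 CPM in N2, above the lows of 27 h and 28 h in both strains.

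miR-48-3p and miR-241-3p had no detectable slope. miR-48-3p had 122, 161 and 494 CPM as its lowest, median and highest level in *mir-235(seed_mut)*, and 116, 164 and 288 CPM in N2. Its highest level in *mir-235(seed_mut)* was the library at 24 h, and in N2 the library at 23 h. All other libraries had at most 210 CPM. The slope was 0.01 ± 0.02 log2 units per h (SE, edgeR, adjusted p = 0.691). miR-241-3p had 981, 1387 and 1653 CPM as its lowest, median and highest level in *mir-235(seed_mut)*, and 1165, 1430 and 2499 CPM in N2. Here the lowest level was the *mir-235(seed_mut)* library at 24 h and the highest the N2 library at 23 h. The slope was 0.0033 ± 0.02 log2 units per h (SE, edgeR, adjusted p = 0.899), and for both 3p arms its sign turned under other scalings.

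**Figure D2:**
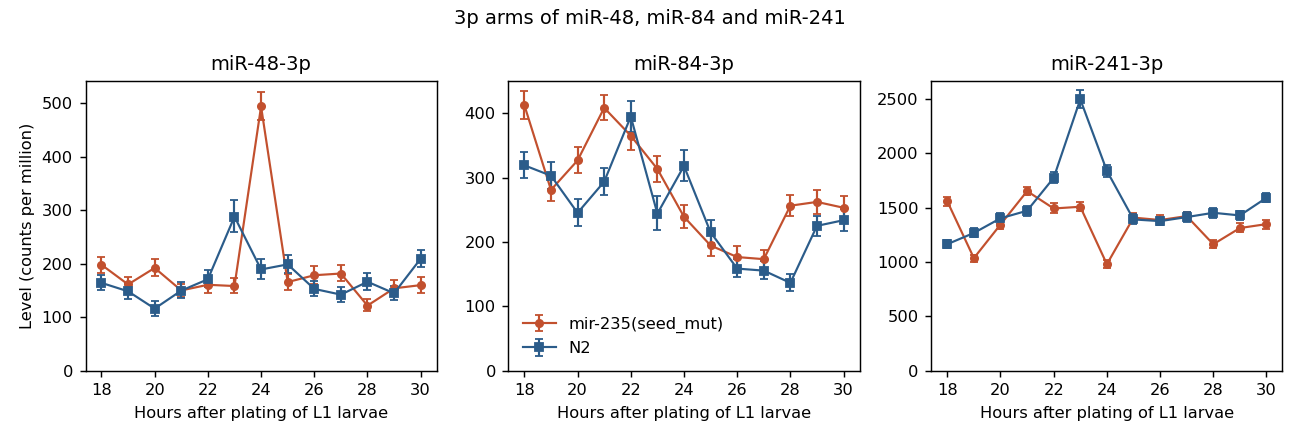
Level in CPM (y axes, each from 0) of the 3p arms against hours after plating, drawn as for the 5p arms, with exact Poisson 95% intervals. miR-48-3p is at 494 CPM in the mir-235(seed_mut) library at 24 h and miR-241-3p at 2499 CPM in the N2 library at 23 h, while miR-84-3p sinks to 173 CPM in mir-235(seed_mut) and 137 CPM in N2.

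Ratios of 2 counts within a library do not depend on the scaling between libraries. Slopes of 9 such ratios over the hours were tested with a two-sided permutation test, permuting hours within strains, with Benjamini-Hochberg adjustment over the 9. In each hairpin the 5p arm gained on the 3p arm. The ratio of miR-84-5p to miR-84-3p was 16.2 at 18 h and 34.3 at 30 h in *mir-235(seed_mut)*, and 16.0 at 18 h and 45.5 at 30 h in N2, a slope of 0.12 ± 0.02 log2 units per h (SE, permutation test, adjusted p = 0.000108). For miR-48-5p over miR-48-3p the ratio was 73.7 at 18 h and 218 at 30 h in *mir-235(seed_mut)*, and 115 at 18 h and 162 at 30 h in N2. Its slope was 0.09 ± 0.02 log2 units per h (SE, permutation test, adjusted p = 0.00109). For miR-241-5p over miR-241-3p the ratio was 0.0708 at 18 h and 0.201 at 30 h in *mir-235(seed_mut)*, and 0.125 at 18 h and 0.184 at 30 h in N2, with a slope of 0.08 ± 0.02 log2 units per h (SE, permutation test, adjusted p = 9e-05). The 3p arm of miR-241 kept more reads than the 5p arm throughout. The path was uneven, since in N2 the ratio was lowest at 23 h for miR-48 and miR-241, the hour of the library that stood apart. Without that library the slopes were 0.09, 0.12 and 0.08 log2 units per h for miR-48, miR-84 and miR-241.

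**Figure D3:**
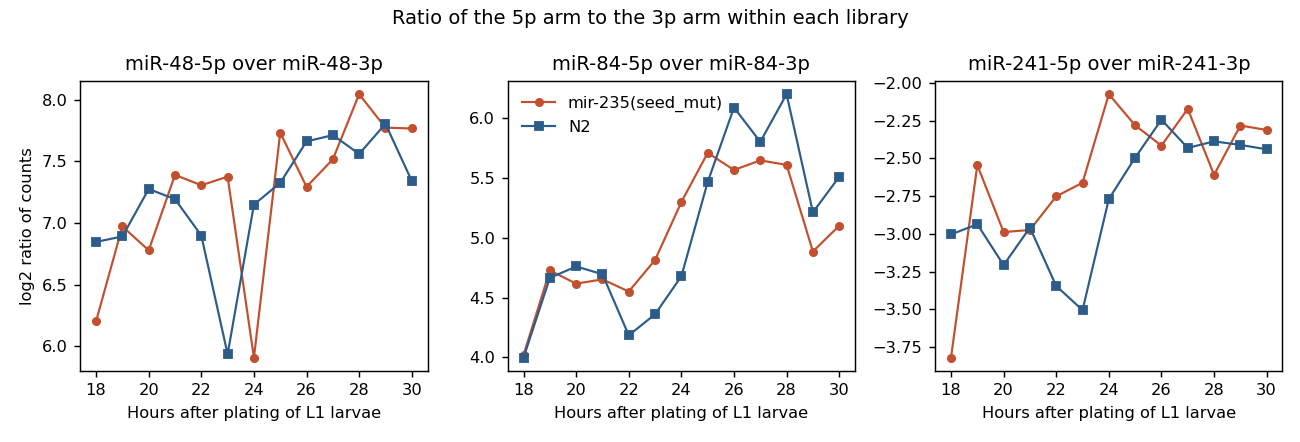
Log2 ratio of the 5p count to the 3p count of each hairpin within a library (y axes, separate ranges, not from 0) against hours after plating, as circles for mir-235(seed_mut) and squares for N2. The slopes over both strains are 0.09 for miR-48, 0.12 for miR-84 and 0.08 log2 units per h for miR-241, and the drops for miR-48 are at 24 h in mir-235(seed_mut) and 23 h in N2.

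Among the sisters, miR-48-5p gained on miR-84-5p over both strains in the fit, while no drift was detected against its chromosomal neighbour miR-241-5p. The ratio of miR-48-5p to miR-84-5p had a median of 2.98 in *mir-235(seed_mut)* and 3.19 in N2, and its slope was 0.04 ± 0.01 log2 units per h (SE, permutation test, adjusted p = 0.00109). The ratio was 2.18 at 18 h and 4.01 at 30 h in *mir-235(seed_mut)*, but 3.71 at 18 h and 3.19 at 30 h in N2. The slope was 0.06 log2 units per h in *mir-235(seed_mut)* and 0.02 in N2, a difference that was not tested. The ratio of miR-48-5p to miR-241-5p was 106 to 169 in *mir-235(seed_mut)*, with a median of 122, and 80.3 to 130.4 in N2, with a median of 116. The low of 80.3 was the N2 library at 23 h. The slope of this ratio, 0.0041 ± 0.0094 log2 units per h (SE), was smaller than its error (permutation test, adjusted p = 0.673). Without the N2 library at 23 h the slope was 0.0026. The ratio of miR-84-5p to miR-241-5p had a slope of -0.04 ± 0.02 log2 units per h (SE, permutation test, adjusted p = 0.0321), which did not pass the threshold. Without the *mir-235(seed_mut)* library at 28 h it was -0.05 and passed (permutation test, adjusted p = 0.00134).

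The sisters were outpaced by let-7-5p. At 18 h let-7-5p had 751 CPM in *mir-235(seed_mut)* and 641 CPM in N2, and at 30 h it had 38148 CPM in *mir-235(seed_mut)* and 35455 CPM in N2. miR-48-5p stood at 19.5 times the let-7-5p count at 18 h and 0.915 times at 30 h in *mir-235(seed_mut)*, and at 29.5 times at 18 h and 0.959 times at 30 h in N2. The slopes of the ratios to let-7-5p were -0.39 ± 0.06 for miR-48-5p, -0.43 ± 0.06 for miR-84-5p and -0.39 ± 0.05 log2 units per h for miR-241-5p (SE, permutation test, raw p = 1e-05 each, the smallest 100000 resamples can give, adjusted p = 3e-05). Of the summed 5p counts of these 4 miRNAs, miR-48-5p took 42.5% to 70.6% in *mir-235(seed_mut)* and 30.3% to 76.3% in N2. miR-84-5p took 10.5% to 30.2% in *mir-235(seed_mut)* and 8.62% to 29.2% in N2, and miR-241-5p at most 0.618% in *mir-235(seed_mut)* and 0.628% in N2. Together the 5p arms of the sisters held 2.14% to 4.58% of all counts in *mir-235(seed_mut)* and 2.29% to 4.50% in N2. The lowest value of N2 was the library at 23 h, and the next lowest was 2.42% at 18 h.

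**Figure D4:**
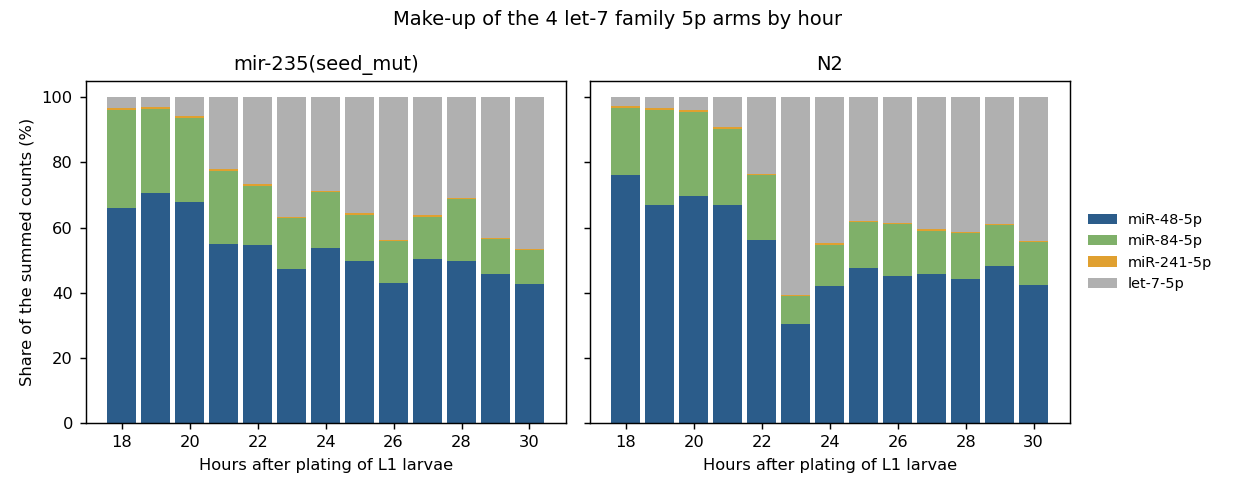
Share (y axis, percent, from 0) of miR-48-5p, miR-84-5p, miR-241-5p and let-7-5p, as stacked bars, in their summed counts at each hour (x axis), in mir-235(seed_mut) on the left and N2 on the right, 1 library per bar. The let-7-5p share grows from the top to 46.5% in mir-235(seed_mut) at 30 h and is at 60.7% in the N2 library at 23 h, and the miR-241-5p share is at most 0.628%.

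Whether the rise slowed was asked with a change of slope at 24 h, the middle of the course. None of the 6 members passed (edgeR, adjusted p between 0.0934 and 0.809), where 3 of 217 miRNAs did (1.38%). At an unadjusted p below 0.05 there were 3 members and 29 of 217 miRNAs, and limma and DESeq2 called no member. Values were negative for miR-48-5p (-0.08 ± 0.03, SE), miR-241-5p (-0.15 ± 0.05) and miR-48-3p (-0.23 ± 0.09 log2 units per h). For miR-48-3p the value was -0.11 without the *mir-235(seed_mut)* library at 24 h and -0.15 without the N2 library at 23 h. let-7-5p, by contrast, did flatten after 24 h, by -1.04 ± 0.12 log2 units per h (SE, edgeR, adjusted p = 1.02e-06). Whether its change differed from those of the sisters was not tested. miR-48-5p stayed above the midpoint of its early and late mean CPM from 23 h on in *mir-235(seed_mut)* and from 24 h on in N2, and let-7-5p from 23 h on in both strains. miR-84-5p did so only from 30 h on in *mir-235(seed_mut)* and from 24 h on in N2. For miR-241-5p it was from 29 h on in *mir-235(seed_mut)* and from 23 h on in N2. In *mir-235(seed_mut)* both arms were first above their midpoints at 21 h and dipped below them again in later libraries.

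The strains were compared to ask whether the mir-235 seed mutation was accompanied by another time course of the sisters. No member had a detectably different slope (edgeR, adjusted p between 0.719 and 0.893), none passed an unadjusted p of 0.05 or was called by limma or DESeq2, and the test called 0 of 217 miRNAs (0%). Fitted separately, the slope of miR-48-5p was 0.12 ± 0.01 in *mir-235(seed_mut)* and 0.10 ± 0.01 log2 units per h in N2 (SE). For miR-241-5p it was 0.11 ± 0.02 in *mir-235(seed_mut)* and 0.10 ± 0.02 in N2. For miR-84-3p it was -0.07 ± 0.02 in *mir-235(seed_mut)* and -0.10 ± 0.02 in N2. These arms passed in each strain. miR-84-5p had a slope of 0.05 ± 0.02 in *mir-235(seed_mut)* (SE, edgeR, adjusted p = 0.0130), just outside the threshold, and 0.08 ± 0.02 in N2 (adjusted p = 0.000357). The difference of these slopes, -0.03 ± 0.02 log2 units per h (SE, edgeR, adjusted p = 0.719), was not detectable. In *mir-235(seed_mut)* 2 members rose beside 16.1% of all miRNAs and 1 fell beside 6.45%. In N2 3 members rose beside 11.5% of all miRNAs and 1 fell beside 14.7%.

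**Figure D5:**
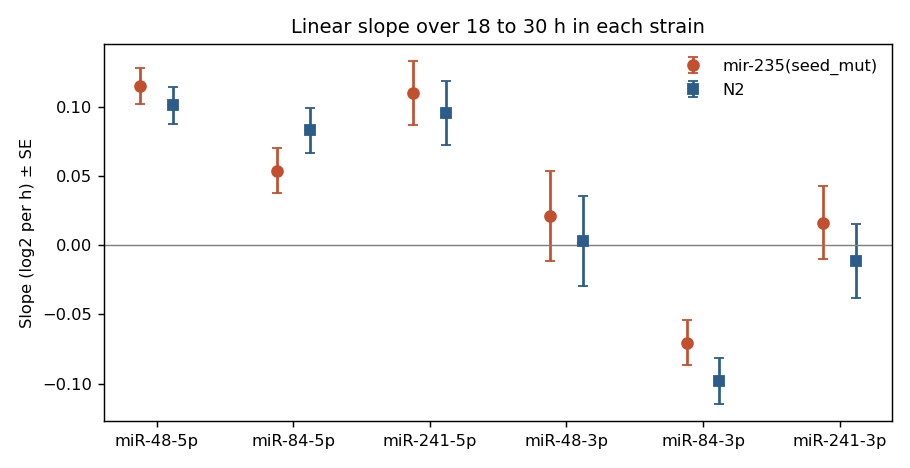
Slope of each arm in log2 units per h with its SE (y axis, edgeR) in mir-235(seed_mut), circles, and N2, squares. The 5p arms lie between 0.05 and 0.12, miR-84-3p at -0.07 in mir-235(seed_mut) and -0.10 in N2, and the remaining 3p arms near 0.

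Mean levels did not differ detectably between the strains for any member (edgeR with a spline of the hour, adjusted p between 0.0777 and 0.906), where 16 of 217 miRNAs did (7.37%), 6 higher and 10 lower in *mir-235(seed_mut)*. With scaling by total counts the split was 4 higher and 1 lower, and the median difference over all miRNAs was 0.10, against -0.02 with TMM scaling. At an unadjusted p below 0.05 there was 1 member beside 75 of 217 miRNAs, and limma and DESeq2 called no member. That member was miR-241-3p, at -0.33 ± 0.13 log2 units (SE, edgeR, adjusted p = 0.0777), higher in *mir-235(seed_mut)* at 5 of 13 hours. Its difference was -0.16 without the N2 library at 23 h. miR-241-5p differed by -0.13 ± 0.09 and the other 4 arms by -0.03 to 0.05 log2 units (SE). Without the N2 library at 23 h miR-241-5p differed by -0.04 and miR-84-3p by 0.11, against 0.05 with it, and neither passed (edgeR, adjusted p = 0.806 and 0.419). Hour by hour miR-48-5p had the higher CPM in *mir-235(seed_mut)* at 11 of 13 hours, with a median ratio of 1.11, although its fitted mean difference was -0.01 ± 0.06 log2 units (SE) after scaling. For any strain difference over time, with strain-specific splines, the test called 0 of 217 miRNAs (0%), with 34 at an unadjusted p below 0.05 and 8 called by DESeq2, and the members had adjusted p between 0.310 and 0.986.

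A rhythm with a period of 7 h, about the length of a larval stage, was tested beside the linear term. The hours sampled span less than 2 such periods. In *mir-235(seed_mut)* no member passed (edgeR), where 5 of 217 miRNAs did (2.3%), and 2 members and 42 miRNAs in all had an unadjusted p below 0.05. In N2 no member passed either, where 13 of 217 did (5.99%), and 2 members and 49 miRNAs in all had an unadjusted p below 0.05. DESeq2 called miR-84-3p in each strain. The amplitude of miR-84-3p, from midline to peak, was 0.34 ± 0.08 log2 units in *mir-235(seed_mut)* (SE, edgeR, adjusted p = 0.0268), with a peak at 22.2 h, and 0.37 ± 0.08 in N2 (adjusted p = 0.0109), with a peak at 22.9 h. Without the 2 libraries named above it was 0.37 in *mir-235(seed_mut)* (adjusted p = 0.00953) and 0.44 in N2 (adjusted p = 0.00573). In a test of a rhythm shared by the strains, added after these values were seen, miR-84-3p had an amplitude of 0.34 ± 0.06 log2 units with a peak at 22.6 h (SE, edgeR, adjusted p = 0.000723). It was the 1 member among 33 of 217 miRNAs that passed (15.2%). The shared amplitude without the 2 libraries was 0.39 (adjusted p = 0.000167). The highest miR-84-3p level was at 22 h in N2, but at 18 h in *mir-235(seed_mut)*, away from the fitted peak.

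Other arms gave no call for a rhythm. miR-48-3p had an amplitude of 0.45 ± 0.16 log2 units in *mir-235(seed_mut)* (SE, edgeR, adjusted p = 0.185) and 0.37 ± 0.17 in N2 (adjusted p = 0.271). Without the 2 libraries the amplitudes were 0.14 in *mir-235(seed_mut)* and 0.16 in N2. miR-241-3p had 0.04 ± 0.13 in *mir-235(seed_mut)* and 0.32 ± 0.14 in N2, where it was 0.12 without the 2 libraries. Among the 5p arms the amplitude reached 0.24 ± 0.08 log2 units (SE), for miR-84-5p in N2 (edgeR, adjusted p = 0.155). No member's rhythm differed detectably between the strains (edgeR, adjusted p between 0.883 and 0.982, none at an unadjusted p below 0.05), where 1 of 217 miRNAs did (0.461%).

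In the list of other let-7 family and timing miRNAs, 10 of 11 sequences were tested. 1 rose, let-7-5p, beside 20.7% of all miRNAs. 2 fell, beside 19.8% of all miRNAs, miR-793 by 0.06 log2 units per h and miR-795-3p by 0.08, both from the let-7 family. A rhythm shared by the strains was called for 4 of the 10, beside 15.2% of all miRNAs. The amplitudes were 1.62 ± 0.25 log2 units for let-7-3p (SE, peak at 22.4 h), 1.21 ± 0.16 for lin-4-3p (22.8 h), 0.78 ± 0.11 for miR-237-3p (22.2 h) and 0.38 ± 0.08 for lin-4-5p (24.2 h). Of the tissue markers 13 of 14 were tested. miR-60-3p, expressed in the intestine, rose by 0.08 log2 units per h, and the neuronal lsy-6-3p and miR-790-5p fell by 0.06 and 0.07. That was 1 rising and 2 falling of 13, beside the same shares over all miRNAs. A shared rhythm was called for 6 of the 13, miR-35-3p to miR-40-3p of the embryo and germ line list, with peaks from 23.4 h to 24.0 h. In whole larvae a change in the number of cells of a type and a change of RNA per cell cannot be told apart, and the part of the marked tissues in the slopes of the sisters was not tested.

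The profiles most like that of each 5p arm were ranked by Pearson's r of log2 CPM over the 26 libraries, among 176 other miRNAs. These values are descriptions, since libraries share the course of development and the library at 23 h. miR-48-5p was most like miR-85-3p (r = 0.927), miR-77-3p (0.915) and miR-786-3p (0.898). miR-241-5p was most like let-7-5p (0.887), miR-48-5p (0.882) and miR-786-3p (0.881). miR-84-5p was most like miR-65-5p (0.770), miR-48-5p (0.747) and miR-60-3p (0.710). The 2 arms of a hairpin were not alike, with r of -0.01 for miR-48, -0.35 for miR-84 and 0.11 for miR-241.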

How the data were processed

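Small RNA libraries (CleanTag kit, gel selection, single-end reads) were sequenced from 13 hours in each strain. The authors trimmed adapters, aligned reads to ce10 with QuasR and Bowtie, allowing up to 100 hits, and deposited raw counts of same-strand reads starting within 3 bp of the 5′ end of miRBase mature miRNAs. The tool versions are not given in the sources used here. Their second deposited table holds log2 values of counts scaled to the mean total, with a pseudocount of 8, and that formula gave its values within 0.0005. It served only for this check.

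Tests on counts used edgeR 4.0.16 with R 4.3.3 (TMM, filterByExpr, robust quasi-likelihood fit). The code was also run on simulated libraries with larger effects than those of the members, so power at the members' effects was not tested. The edited and unedited miR-235 rows were summed per arm, leaving 437 rows, of which 217 with 99.99% of counts were tested. The threshold was an adjusted p of 0.01. Ratios (0.5 added to each count) were tested by permutation of hours within strains (Python 3.11.15, numpy 2.4.6, scipy 1.17.1). Shares carry no test, and their Wilson 95% intervals cover counting error only. Alternatives used limma 3.58.1, DESeq2 1.42.0, other scaling, filters, periods and left-out libraries.

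All 6 members were named, with family, timing and marker lists, and the 3 most similar profiles of each 5p arm. Members and lists were chosen with earlier results of these data known. Family members share their first bases, and read sharing among them was not tested.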

Additional observations from a re-analysis of the deposited data

How the results depend on the processing

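The slope calls of miR-48-5p, miR-241-5p, miR-84-5p and miR-84-3p held under each alternative run, including each left-out library. Their slopes ranged over the settings other than left-out libraries from 0.09 to 0.12, 0.09 to 0.12, 0.05 to 0.08 and -0.10 to -0.06 log2 units per h. The sign turned for arms without a call. For miR-48-3p the slope was -0.0033 with total counts, and -0.0034 with limma and pseudocounts of 8 or 1. For miR-241-3p it was -0.012 with total counts and -0.011 with limma at either pseudocount, and -0.0045 to 0.012 when single libraries were left out. The mean difference of miR-241-5p was 0.0022 with total counts. The rhythm of miR-84-3p lay at the threshold. The number of members called in N2 was 1 instead of 0 with a mean of at least 50 counts, DESeq2, a threshold of 0.05, a quadratic term, or without the N2 23 h and mir-235(seed_mut) 24 h libraries together, an alternative chosen after seeing the data. In mir-235(seed_mut) it was 1 with DESeq2, a threshold of 0.05, or without both libraries. With single libraries left out it was 0 to 1 in each strain. The N2 call appeared without the N2 library at 18, 19 or 23 h or the mir-235(seed_mut) library at 18, 23 or 24 h, and the mir-235(seed_mut) call without its own library at 18 h. With the hour as a replicate block in place of the spline, the mean difference of miR-241-3p was -0.30 (edgeR, adjusted p = 0.0912) and no member was called. The hours pair the strains by time only. The ratio of miR-48-5p to miR-241-5p had a slope of -0.0015 to 0.0089 when single libraries were left out, and the number of ratios called was 7 to 8. Over all 217 miRNAs, calls ranged under other settings from 1 (no filter) to 35 (threshold of 0.05) for the mean difference, where 16 were called, and from 3 to 23 for the rhythm in mir-235(seed_mut), where 5 were called. For the rhythm in N2 they ranged from 6 to 25, against 13, for the change of slope from 3 to 9, against 3, for the difference in rhythm from 0 to 11, against 1, and for any strain difference from 0 to 8, against 0. With single libraries left out, the mean difference had 1 (without N2 at 21 h) to 21 calls (without N2 at 25 h), the rhythm in mir-235(seed_mut) 1 (without its library at 22 h) to 18 (without N2 at 23 h), and the change of slope 2 to 5. The cause of these changes was not tested. Precision from depth varied with the arm, and the lowest count of any member was 262, for miR-48-3p in N2.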
